A study of Mus musculus with 12 samples.

Results

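*Adam23* and *Dapk1* are 2 of the 24881 genes listed with an expression value in RNA-seq of G1-phase mouse embryonic stem cells (ESCs). They were picked by symbol because their transcripts were almost lost without P53 in 2i medium and were merely lowered in serum. The FPKM values of both P53 contrasts chose them, so their levels are described here without a test. RNA came from R1 ESCs, a mouse line that carries the FUCCI reporters, fluorescent proteins that mark the phase of the cell cycle, and cells in G1 were sorted. WT and P53-/- cells were each grown in serum or in 2i, which gives 4 groups of 2 libraries, and all of them carry the reporters. P53-/- cells were clones made by CRISPR/Cas9 cutting of an exon that the *Trp53* isoforms share, and clones 1 and 2 were used for RNA-seq. Which clone gave which library is not stated, so libraries are numbered within a group in the order in which they are listed. Whether the WT libraries of a group came from separate cultures is not given in the sources used here, so p-values measure only the spread between these libraries, which may be technical.

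2i medium holds inhibitors of MEK and GSK3 and keeps ESCs in a naive, DNA-hypomethylated state, whereas serum ESCs signal through ERK and have more DNA methylation. *Adam23* encodes a membrane protein of the ADAM (a disintegrin and metalloprotease) family that has no working protease. On neurons it binds the secreted LGI proteins and integrins and acts in cell adhesion and at synapses. *Dapk1* encodes death-associated protein kinase 1, a serine/threonine kinase that calcium and calmodulin switch on and that promotes apoptosis and autophagy. Both genes are known for CpG island promoters that become methylated and silent in tumours, and *Dapk1* has been described as a P53 target.

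Expression is given as FPKM, fragments per kilobase of transcript at equal numbers of mapped fragments, so levels of different genes can be compared. Depth, worked out from the spacing of low values, ran from about 5200000 to 13000000 fragments per library, up to a factor common to all libraries, and 15181 to 15792 genes were detected per library. *Trp53* itself had 7.25 and 1.88 FPKM in the P53-/- 2i libraries against 26.8 and 33.7 in WT 2i, and 16.8 and 3.68 in P53-/- serum against 77.6 and 75.1 in WT serum. Its transcript was therefore lower in every P53-/- library than in any WT library of the same culture, though far from absent in library 1 of both P53-/- groups. The 10 markers of pluripotent cells, among them *Pou5f1*, *Sox2* and *Nanog*, had a summed level of 3266 to 4302 FPKM over the libraries, and none of them was below 1 FPKM in both libraries of a group. The largest part of this sum was *Dppa5a*, with 1403 to 2691 FPKM. Differences were tested with limma on log2(FPKM + 0.1) over the 12572 genes with enough signal, where a call needed a fold change above 1.5 and an adjusted p below 0.1. Of the 10 markers, 2 fell in P53-/- 2i, where 5.97% of all genes fell, and none was called in serum. These were *Klf4*, a naive pluripotency factor gene (log2 fold change −0.96, limma adjusted p = 0.00782), and *Lin28a* (−0.91, adjusted p = 0.0708), whose call was lost without any 1 library other than library 1 of P53-/- 2i, with adjusted p values of up to 0.256.

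*Adam23* lies on the plus strand of chromosome 1, from 63445891 to 63596276 in GRCm38 (ENSMUSG00000025964.15), and *Dapk1* on the plus strand of chromosome 13, from 60601947 to 60763191 (ENSMUSG00000021559.14). These positions are from GENCODE M21. The submitters' processing notes name mm9, another build, and no position was converted. Stretches upstream of the 2 start sites are shown because both are rich in CG dinucleotides, the letters that DNA methylation uses, which are in capitals. They are RefSeq sequences of GRCm38.p6, plus strand, and cover chr1:63445641-63445890 for *Adam23* and chr13:60602111-60602210 for *Dapk1*. The *Adam23* stretch ends at the base before the annotated gene, and the *Dapk1* stretch lies in the first intron of a transcript that starts further upstream.
Adam23: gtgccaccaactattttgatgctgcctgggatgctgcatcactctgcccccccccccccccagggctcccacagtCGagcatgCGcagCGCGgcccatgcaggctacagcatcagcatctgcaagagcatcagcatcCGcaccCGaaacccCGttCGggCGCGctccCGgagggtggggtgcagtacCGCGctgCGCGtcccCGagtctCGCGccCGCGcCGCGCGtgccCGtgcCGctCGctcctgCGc
Dapk1: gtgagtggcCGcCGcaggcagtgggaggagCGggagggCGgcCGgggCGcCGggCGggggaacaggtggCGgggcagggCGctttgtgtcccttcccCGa

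The stretch of 250 bases before the *Adam23* start holds 27 CG dinucleotides, and the 100 bases before the *Dapk1* start hold 11. In the whole promoter window of 300 bases, from 250 before to 50 after the start, *Adam23* had 31 CG and a GC content of 70.0%, and *Dapk1* had 38 CG and 77.7%. Of the 27025 RefSeq promoter windows, 89.7% held fewer CG than that of *Adam23* and 95.2% fewer than that of *Dapk1*. Genes expressed in these ESCs had more CG than genes at large. The median was 21 CG among the 9765 tested genes with a window and 7 over all windows, and of the former 79.3% and 90.6% held fewer than *Adam23* and *Dapk1*, respectively. The consensus half-site of P53, searched on both strands, was found in neither window, while 8.37% of all windows and 8 of the 29 windows of listed P53 targets held one. The window covers a small part of each locus, so a missing match says only that these letters are not in it. GGGCGG, the core of a site for SP/KLF factors, was found in the *Dapk1* window at 2 positions and not in that of *Adam23*, on either strand, and 35.9% of all windows held it.

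*Adam23* was highest in WT serum, at 24.6 and 26.1 FPKM, followed by P53-/- serum with 14.8 and 16.9, WT 2i with 6.52 and 5.69, and P53-/- 2i with 0.0962 and 0.0856. No group overlapped with the next in this order. The group means were 25.4 ± 1.06, 15.9 ± 1.51, 6.10 ± 0.586 and 0.0909 ± 0.00750 FPKM (SD, n = 2). In bulk RNA, fewer cells with the transcript and less transcript per cell cannot be told apart.

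Without P53, *Adam23* kept 1.49% of its WT level in 2i and 62.6% in serum. Over the 4 pairings of a P53-/- with a WT library, the share ran from 1.31% to 1.69% in 2i and from 56.7% to 68.8% in serum. This is a 67.2-fold lower level in 2i and a 1.60-fold lower level in serum. On the scale of log2(FPKM + 0.1), which understates changes of low values, the differences were −5.02 in 2i and −0.68 in serum, so that the difference between the cultures came to −4.34. On the linear scale the order was the other way around, since the mean dropped by 6.01 FPKM in 2i and dropped by 9.49 FPKM in serum. Over the pairings this loss was −6.43 to −5.59 FPKM in 2i and −11.3 to −7.67 FPKM in serum, so these ranges did not overlap. Pairings of a culture share libraries, so such ranges only describe the spread. The *Adam23* level differed between the cultures in both genotypes. WT 2i cells had 24.1% of the level of WT serum cells, with pairings of 21.8% to 26.5%, and P53-/- 2i cells had 0.573% of the level of P53-/- serum cells, with pairings of 0.505% to 0.650%.

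**Figure D1:**
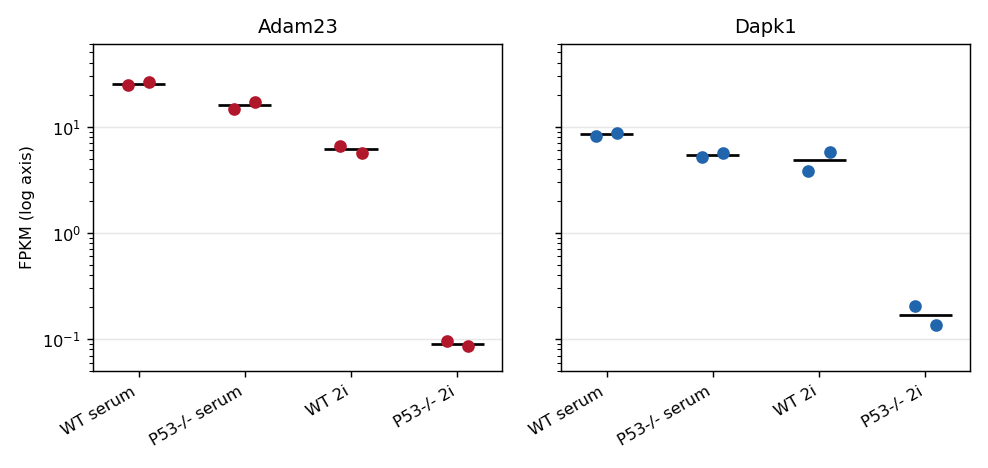
FPKM of *Adam23* (left) and *Dapk1* (right) on a log axis in the 4 groups of G1-phase ESCs. Each point is 1 library and each line the mean of 2. Both genes sit under 0.21 FPKM in the P53-/- 2i libraries and at 3.84 FPKM or more in all others.

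*Dapk1* was highest in WT serum as well, with 8.17 and 8.73 FPKM. P53-/- serum had 5.14 and 5.62 and WT 2i 3.84 and 5.77, so these groups overlapped and their order cannot be told. P53-/- 2i had 0.205 and 0.135 FPKM. The group means were 8.45 ± 0.396 in WT serum, 5.38 ± 0.339 in P53-/- serum, 4.80 ± 1.37 in WT 2i and 0.170 ± 0.0491 in P53-/- 2i (SD, n = 2).

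Without P53, *Dapk1* kept 3.53% of its WT level in 2i, with a range of 2.34% to 5.33% over the pairings, and 63.7% in serum, with a range of 59.0% to 68.9%. The level was 28.3-fold lower in 2i and 1.57-fold lower in serum. The differences of log2(FPKM + 0.1) were −4.17 in 2i and −0.64 in serum, and −3.53 between the cultures. In contrast to *Adam23*, *Dapk1* lost more transcript in 2i on the linear scale too, where the mean dropped by 4.64 FPKM in 2i and dropped by 3.06 FPKM in serum. The pairings gave −5.64 to −3.63 FPKM in 2i and −3.58 to −2.54 FPKM in serum, so these ranges all but touched. The smallest loss in 2i came from the WT 2i library with 3.84 FPKM, where the other had 5.77. The larger loss of *Dapk1* in 2i on this scale is therefore uncertain. WT 2i cells had 56.9% of the *Dapk1* level of WT serum cells, and the pairings of single libraries ran from 44.0% to 70.7%. P53-/- 2i cells had 3.15% of the level of P53-/- serum cells, with pairings of 2.403% to 3.98%. The step between the cultures in WT cells, −0.83 on the log2 scale, was thus smaller for *Dapk1* than for *Adam23*, which had −2.04.

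The shares kept in serum, 62.6% and 63.7%, lay within the pairing range of the other gene. Accordingly, the ratio of *Adam23* to *Dapk1* FPKM hardly moved in serum, with 2.87 and 3.01 in P53-/- and 3.01 and 2.99 in WT. In 2i it was lower, at 1.70 and 0.986 in WT and at 0.470 and 0.633 in P53-/-, so the 3 ranges did not overlap. *Adam23* was thus the more abundant transcript of the pair in all serum libraries. In both P53-/- 2i libraries it had the lower FPKM of the pair. There the ratios rest on about 6 fragments of *Adam23* against 10 of *Dapk1* and on 3 against 4, by estimated depth. Which gene was the more abundant in P53-/- 2i, and whether the ratio differed from WT 2i, is therefore uncertain. Over the 8 libraries, Pearson's r of log2(FPKM + 0.1) between the genes was 0.984 and Spearman's rho 0.857. The points fall into the 4 groups that also chose the genes, so these values only describe them.

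The low values in P53-/- 2i rest on few fragments. With transcripts of 6426 and 5304 bases, the estimated depth puts *Adam23* at about 6 and 3 fragments and *Dapk1* at about 10 and 4 in the P53-/- 2i libraries. In WT 2i the estimates were 329 and 189 for *Adam23* and 160 and 159 for *Dapk1*. A few fragments more or less thus change the share left in 2i, whereas the serum values rest on at least 280 fragments in each library. Among the 12572 genes tested, 1.42% and 1.56% had an FPKM at or below that of *Adam23* in the P53-/- 2i libraries, and 2.39% and 1.89% one at or below that of *Dapk1*. In WT 2i, *Adam23* lay above 44.0% and 41.2% of the tested genes, and in WT serum above 74.2% and 74.6%. *Dapk1* lay above 31.8% and 41.6% in WT 2i and above 49.4% and 49.98% in WT serum. In P53-/- serum, *Adam23* was above 62.5% and 65.2% of the tested genes and *Dapk1* above 38.8% and 40.5%, so both were transcripts of middle rank there.

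Ranked by the log2 fold change between P53-/- and WT among the 12572 genes, *Adam23* was at place 8 from the most negative in 2i and *Dapk1* at place 18. In serum they were at places 632 and 707, and by the difference between the cultures at places 28 and 44. These places are for a pseudocount of 0.1. As a description, genes with a WT mean of at least 1 FPKM in both cultures were listed with the share kept without P53. The limits were set around the values of *Adam23* and *Dapk1*, and the same values chose these genes, so their place in the list was fixed beforehand. Of 10341 such genes, 16 kept at most 5% in 2i, and the median share that these 16 kept in serum was 13.2%. *Adam23* and *Dapk1* were among the 5 that kept at least 50% in serum. The other 3 were the small nucleolar RNA gene *Gm24148*, the pseudogene *Pisd-ps1* and the long non-coding RNA gene *Pvt1*, which kept 469%, 53.6% and 52.7% in serum. *Pm20d1* and *Platr21* lay just outside, with 48.9% and 46.1%. On the other side, *Eda2r*, a death receptor gene, kept 0.0656% in 2i and 0.323% in serum. *Ddx3y*, *Eif2s3y* and *Uty*, genes of chromosome Y, were at 0 in all 4 P53-/- libraries, and whether other differences between the lines bear on *Adam23* or *Dapk1* was not tested.

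**Figure D2:**
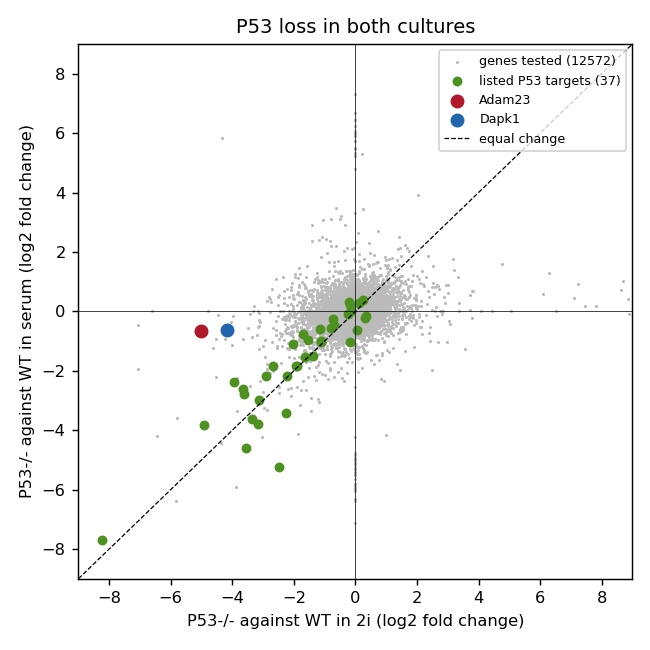
Log2 fold change of FPKM + 0.1 between P53-/- and WT in 2i (x axis) and in serum (y axis) for the 12572 genes tested, with 17 genes beyond the axis limits of 9. The 37 listed P53 targets lie on both sides of the dashed line of equal change, with differences of −1.57 to 2.77, and *Adam23* (−5.02, −0.68) and *Dapk1* (−4.17, −0.64) lie left of it.

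The P53 targets give a comparison with genes whose dependence on P53 is well known. They were 39 genes other than *Dapk1*, of which 37 could be tested with limma. In 2i, 26 of them fell and none rose, while 10.3% of all genes tested were called and 5.97% fell. In serum, 19 fell and none rose, while 0.883% of all genes fell. *Ccng1*, the gene of cyclin G1, had 158 and 198 FPKM in WT 2i against 17.1 and 17.5 in P53-/- 2i, and 100.5 and 110.2 FPKM in WT serum against 9.39 and 7.50 in P53-/- serum. On the log2 scale it changed by −3.35 in 2i and −3.63 in serum (limma adjusted p = 3.86e-05 and 7.55e-05). *Trp53inp1*, which encodes a stress-induced P53 cofactor, changed by −3.15 and −3.80 (adjusted p = 1.52e-05 and 2.51e-05), and *Eda2r* by −8.25 and −7.71 (adjusted p = 1.52e-05 and 6.55e-05). *Bbc3*, the gene of the apoptosis activator PUMA, changed by −3.96 and −2.39 (adjusted p = 0.000394 and 0.0112), and *Plk2*, a polo-like kinase gene, by −2.48 and −5.25 (adjusted p = 0.0157 and 0.0018). The serum call on *Bbc3* was lost in a fit of the serum libraries alone and without library 1 of WT serum, with adjusted p values of up to 0.145. The serum call on *Plk2* was lost in a fit of the serum libraries alone (adjusted p = 0.111), and its serum value was −5.93 without library 1 of P53-/- serum and −4.57 without library 2. The median change of the 37 targets was −1.65 in 2i and −1.11 in serum. The place of *Adam23* (−5.02) and *Dapk1* (−4.17) among the targets in 2i depends on the pseudocount. With 0.1, 1 target had a lower value than *Adam23* and 2 a lower one than *Dapk1*, with 0.01 these were 2 and 3, and with 1 they were 8 and 9. In serum, 24 of the 37 targets had a lower value than either gene (−0.68 and −0.64).

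None of the 37 targets passed the limma test for a difference of the P53 effect between the cultures, for which 0.207% of all genes were called, and 9 of them had an unadjusted p under 0.05. Their differences ran from −1.57 for *Bbc3* to 2.77 for *Plk2*, with a median of −0.15 beside 0.01 over all genes tested. The lower end of this range depends on the pseudocount, and with 0.01 it was −3.39, the value of *Zfp365*, where *Adam23* had −5.24 and *Dapk1* −4.09. The difference of *Zfp365* was −1.11 with 0.1 and 0.37 with 1, so it changed sign, and its P53-/- 2i libraries had 0.0238 and 0 FPKM. The values of *Adam23* and *Dapk1* with the pseudocount of 0.1, −4.34 and −3.53, lay outside the range of the targets, but these genes were picked for that. By the share kept, without a pseudocount, *Zfp365* had 0.343% in 2i and 5.71% in serum. Its serum share was 16.7 times its 2i share, near the 18.0 of *Dapk1*, while *Adam23* had 42.0. Over all 6 gene lists, 0 of 109 genes were called for the difference and 25 had an unadjusted p under 0.05, against 13.1% of all genes. Without library 1 of P53-/- serum, *Plk2* (3.44, adjusted p = 0.0423) and *Cdkn2a* (1.48, adjusted p = 0.0855) passed limma's test, and these were named after their values were seen.

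*Adam23* itself was not tested, and most other ADAM genes had too little signal for a test, so no direction is given for the latter. Of 33 other ADAM genes, 9 were at 0 in all libraries and 9 could be tested. In 2i, none of the 9 fell in P53-/-, where 5.97% of all genes fell, and for 9 genes this is near that share. Only 1 of the 9 rose, against 4.36% of all genes that rose. This was *Adam19*, a protease gene, with 2.71 and 6.49 FPKM in WT 2i against 12.3 and 9.84 in P53-/- 2i (log2 fold change 1.37, limma adjusted p = 0.0661). The call on *Adam19* was lost without any 1 library other than library 2 of WT 2i, with adjusted p values of up to 0.226 and log2 fold changes of 0.75 to 1.98. *Adam22* and *Adam11* encode the other ADAM proteins that lack a protease and bind LGI proteins. *Adam22* had 6.04 and 5.75 FPKM in WT 2i against 4.18 and 5.80 in P53-/- 2i, a log2 fold change of −0.25 (adjusted p = 0.537), and *Adam11* had 1.43 and 1.052 in WT 2i against 0.711 and 0.741 in P53-/- 2i (−0.68, adjusted p = 0.408). In 2i, 5 of the 9 had an unadjusted p under 0.05, which 25.2% of all genes had, and of these *Adam9*, *Adam10*, *Adam17* and *Adam19* had positive log2 fold changes and *Adam15* a negative one. In serum, none of the 9 passed, and none had an unadjusted p under 0.05, which 11.3% of all genes had.

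Between WT 2i and WT serum, 55.7% of all genes were called, and 7 of the 9 tested ADAM genes. Of the 9, 4 were lower in 2i, as were 28.6% of all genes, and 3 were higher, as were 27.2%. *Adam22* and *Adam11* were higher in WT 2i, by 1.02 and 2.06 on the log2 scale (limma adjusted p = 0.0059 and 0.00621), where *Adam23* was lower by a log2 difference of −2.04. *Adam4*, *Adam1a*, *Adam10* and *Adam17* were lower in WT 2i, by between −4.06 and −1.18. *Adam10* and *Adam17* encode the main sheddases of cell-surface proteins.

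Among the ligands and partners of ADAM23, the LGI genes were scarce. *Lgi1*, the best known ligand gene, was at 0 in 7 of 8 libraries and at 0.0186 FPKM in the other, and *Lgi3* and *Lgi4* stayed below 0.24 FPKM. *Lgi2* was the only one with enough signal for a test, with 1.04 and 0.413 FPKM in WT 2i against 0.831 and 0.995 in P53-/- 2i (log2 fold change 0.40, adjusted p = 0.675). Of the 7 partners tested, 1 rose in P53-/- 2i and none fell, where 4.36% of all genes rose and 5.97% fell. This was *Prnp*, the prion protein gene, with 10.2 and 11.6 FPKM in WT 2i against 15.6 and 17.7 in P53-/- 2i (0.61, adjusted p = 0.0699), a call that was lost without any 1 of the 4 2i or the 2 WT serum libraries, with adjusted p values of up to 0.278. In serum *Prnp* had 2.26 and 2.58 FPKM in WT and 1.65 and 1.49 without P53, the opposite direction (−0.59, adjusted p = 0.247). Its P53 effects differed by 1.20 from culture to culture, which was not called (adjusted p = 0.16). None of the partners passed in serum, and *Prnp* was the 1 of the 7 with an unadjusted p under 0.05 in either culture, beside 25.2% of all genes in 2i and 11.3% in serum.

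Markers of neurons, where ADAM23 is best known, were low. The 12 neural markers summed to 32.3 to 34.7 FPKM in WT 2i against 23.6 to 28.6 in P53-/- 2i, and to 31.9 to 33.4 in WT serum against 42.1 to 47.1 in P53-/- serum, and the defining gene *Dcx* was at 0 in all libraries. Most of this sum came from *Tubb3*, a neuronal tubulin gene, with 29.6 and 32.2 FPKM in P53-/- serum against 18.2 and 19.2 in WT serum. Of the 5 neural markers that could be tested, *Tubb3* fell in P53-/- 2i (−0.61, limma adjusted p = 0.054), where 5.97% of all genes fell. That call was lost without library 2 of P53-/- 2i, library 1 of WT 2i or either WT serum library. None of the 5 passed in serum, where 1.02% of all genes were called. The 9 primitive endoderm markers summed to 16.1 to 16.5 FPKM in WT 2i against 11.8 to 12.2 in P53-/- 2i, and to 36.4 to 36.8 in WT serum against 22.5 to 28.5 in P53-/- serum, the same order of groups as *Adam23* had. These sums came mostly from *Lama1* and *Col4a1*, while *Gata4*, *Sox17* and *Gata6*, which define these cells, had 0.162 to 2.40, 0 to 1.09 and 0.0965 to 0.397 FPKM over the libraries. Unlike the sum, *Gata4* was higher in WT 2i (2.40 and 1.28 FPKM) than in WT serum (0.830 and 0.614). *Sox17* was so too, with 1.09 and 0.395 against 0.159 and 0, whereas *Gata6* had 0.311 and 0.238 against 0.397 and 0.395. Of the 3 primitive endoderm markers that could be tested, *Col4a1* fell in P53-/- 2i, where 5.97% of all genes fell. It had 1.94 and 0.755 FPKM in WT 2i against 0.0907 and 0.296 in P53-/- 2i (−2.26, limma adjusted p = 0.0291). The call was lost without library 1 of P53-/- 2i and in a fit of the 2i libraries alone (−2.89 to −0.93 over all settings). In serum *Col4a1* had 17.1 and 17.4 FPKM in WT and 11.2 and 11.5 without P53 (−0.60, adjusted p = 0.656). The part of such cells in the levels of *Adam23* was not tested. The 9 fibroblast markers summed to 0.831 to 1.69 FPKM in 2i and 8.35 to 10.9 in serum, there mostly from *Thy1*, with *Col3a1* and *Postn* at 0. The 7 mesoderm markers summed to 8.96 to 14.6 FPKM in 2i and 2.97 to 4.13 in serum. The largest part of the 2i sum was *Gsc*, with 6.23 to 9.83 FPKM in 2i and 0 to 0.205 in serum.

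None of the tested kinases closest to DAPK1 passed the test in 2i or in serum, where 10.3% and 1.02% of all genes were called. For so few genes this is near those shares. *Dapk3* had 15.4 and 13.0 FPKM in WT 2i against 17.2 and 13.4 in P53-/- 2i, a log2 fold change of 0.10 (limma adjusted p = 0.761), and the ranges overlapped. *Dapk2* had 0.805 and 1.12 FPKM in WT 2i against 1.51 and 1.07 in P53-/- 2i (0.39, adjusted p = 0.548), and *Stk17b*, which encodes the related kinase DRAK2, had 5.03 and 5.55 against 6.98 and 7.01 (0.40, adjusted p = 0.121). In serum *Dapk2* had 0.843 and 0.755 FPKM in WT and 0.333 and 0.379 in P53-/- (−0.98, adjusted p = 0.366), so the groups did not overlap but the test was not passed.

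Of the 11 tested DAPK and calmodulin kinase genes other than *Dapk1*, 3 fell in P53-/- 2i and none rose, where 5.97% of all genes fell and 4.36% rose. All 3 encode subunits of calcium/calmodulin-dependent kinase II, whose other gene, *Camk2d*, was not called (−0.25, limma adjusted p = 0.758). *Camk2b* had 4.10 and 3.66 FPKM in WT 2i against 0.633 and 1.004 in P53-/- 2i (log2 fold change −2.14, SE 0.31, limma adjusted p = 0.0096), and its call was lost only in a fit of the 2i libraries alone (adjusted p = 0.104). *Camk2a* (−1.57, adjusted p = 0.0969) and *Camk2g* (−0.68, adjusted p = 0.0459) were called more weakly, and both calls were lost without either P53-/- 2i library, library 1 of WT 2i or either WT serum library, that of *Camk2a* also without library 2 of WT 2i, with adjusted p values of up to 0.255. In 2i, 5 of the 11 had an unadjusted p under 0.05, beside 25.2% of all genes. In serum none of the 11 passed, 3 had an unadjusted p under 0.05 (11.3% over all genes), and *Camk2b* had 2.93 and 2.76 FPKM in WT and 1.89 and 3.18 in P53-/-. For *Camk2b* the difference between the cultures was −1.94 (adjusted p = 0.169).

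**Figure D3:**
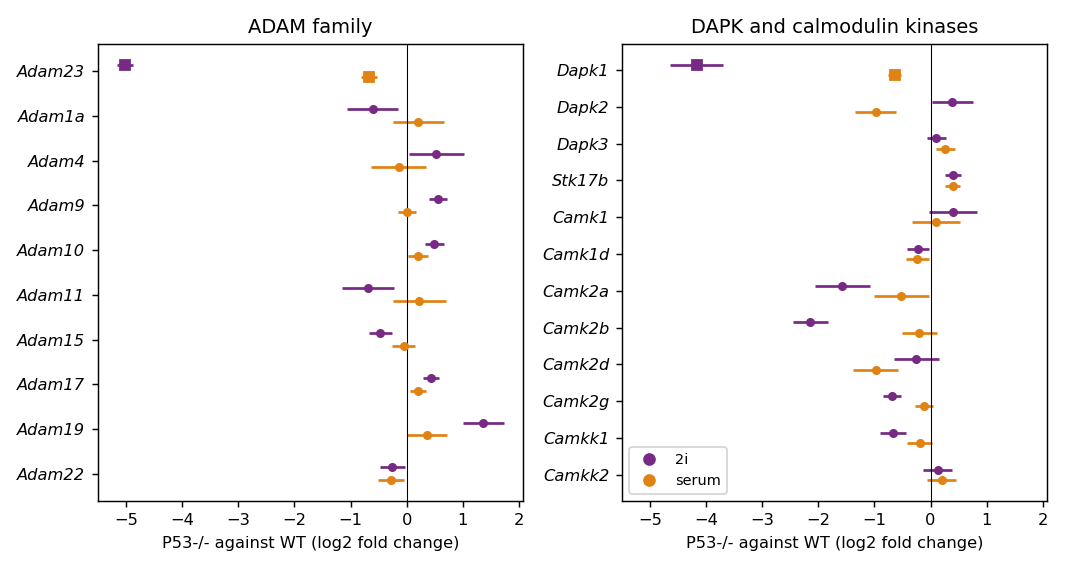
Log2 fold change of FPKM + 0.1 between P53-/- and WT in 2i (purple) and serum (orange) for the tested ADAM genes (left) and DAPK and calmodulin kinase genes (right). Squares are *Adam23* and *Dapk1* with the range over the pairings of libraries, and circles are the other genes with the standard error from limma. The next lowest value in 2i is that of *Camk2b*, at −2.14.

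Of 32 tested regulators and substrates of DAPK1, 2 fell and 2 rose in P53-/- 2i, shares near the 5.97% and 4.36% of all genes. *Trp53* was one of those that fell. *Ptprf*, the gene of the phosphatase LAR that can activate DAPK1, had 11.6 and 10.8 FPKM in WT 2i against 6.26 and 5.20 in P53-/- 2i (−0.96, limma adjusted p = 0.0114, and 0.129 in a fit of the 2i libraries alone). Among those that rose was *Map1b*, which encodes a microtubule-binding partner of DAPK1 (0.74, adjusted p = 0.0533). The call on *Map1b* was lost without either P53-/- 2i library, library 1 of WT 2i or either WT serum library, with adjusted p values of up to 0.186, and that on *Trp53* (−2.98, adjusted p = 0.0547) without library 2 of P53-/- 2i, either WT 2i or either WT serum library, with adjusted p values of up to 0.25 and log2 fold changes of −3.93 to −2.04. An unadjusted p under 0.05 was found for 8 of the 32 in 2i and 4 in serum, where none passed, shares near the 25.2% and 11.3% of all genes.

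As both promoters are of the CpG island kind, 17 further tumour suppressor genes known for promoter methylation in cancer were compared. In P53-/- 2i, 3 of them fell and none rose, where 5.97% of all genes fell and 4.36% rose. *Cdkn2b*, the gene of the CDK inhibitor P15, had 8.79 and 6.85 FPKM in WT 2i against 3.31 and 2.79 in P53-/- 2i (−1.32, limma adjusted p = 0.0387). *Mgmt*, a DNA repair gene, had 51.6 and 34.7 in WT 2i against 8.81 and 11.1 in P53-/- 2i (−2.08, adjusted p = 0.0937). *Dkk3*, a secreted WNT modulator gene, had 1.48 and 2.95 against 0.889 and 0.764 (−1.25, adjusted p = 0.0858). The call on *Cdkn2b* was lost without either P53-/- 2i library, library 1 of WT 2i or either WT serum library, that on *Mgmt* without any 1 of the 4 2i or the 2 WT serum libraries, and that on *Dkk3* without any 1 library but library 1 of WT 2i, with adjusted p values of up to 0.273. The median log2 fold change of the 17 was −0.08 in 2i, beside 0.02 over all genes. An unadjusted p under 0.05 was found for 5 in 2i and 4 in serum, where none passed, beside 25.2% and 11.3% of all genes. Log2 fold changes in serum were −1.37 for *Cdkn2b*, −2.86 for *Mgmt* and −0.03 for *Dkk3* (limma adjusted p = 0.121, 0.142 and 0.992). For *Cdkn2b* and *Mgmt* the size was thus not smaller than in 2i, whereas for *Adam23* and *Dapk1* it was. Their differences between the cultures were 0.05 for *Cdkn2b*, 0.78 for *Mgmt* and −1.22 for *Dkk3*, and none was called. DNA methylation was not analysed here.

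Of the 3 nearest protein-coding genes on each side of *Adam23* and *Dapk1*, *Gm39653*, the first downstream of *Adam23*, was not analysed here, and the others were examined. Upstream of *Adam23* is *Zdbf2*, at a distance of 131141 bases, with 3.40 and 5.10 FPKM in WT 2i against 2.25 and 2.33 in P53-/- 2i, then 40.0 and 54.7 in WT serum against 49.4 and 42.6 without P53. *Zdbf2* fell by 0.84 on the log2 scale in P53-/- 2i (limma adjusted p = 0.0666), a call that was lost without any 1 library but library 1 of WT 2i, with adjusted p values of up to 0.217. The levels in serum overlapped (−0.03, adjusted p = 0.985). Like *Adam23*, *Zdbf2* was lower in WT 2i than in WT serum, by a log2 difference of −3.46 (adjusted p = 3.17e-05), as were 28.6% of all genes. *Eef1b2*, a translation factor gene further upstream, had 664 and 832 FPKM in WT 2i against 525 and 517 in P53-/- 2i (−0.51, adjusted p = 0.115). *Gpr1*, *Dytn* and *Mdh1b* stayed below 0.75 FPKM.

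Upstream of *Dapk1*, *Gas1* (0.32, limma adjusted p = 0.712), *Tut7* (0.11, adjusted p = 0.819) and *Isca1* (−0.03, adjusted p = 0.975) did not pass in 2i, nor in serum. *Tut7* and *Isca1* were lower in WT 2i than in WT serum, by −1.06 and −1.34 (adjusted p = 0.00602 and 0.00719), as were 28.6% of all genes. The first genes downstream, *BC051665* and *Ctsll3*, were at 0 in all libraries. Within its locus, *Dapk1* overlaps 2 annotated genes on the same strand, and reads that they share cannot be told apart.

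The genes whose profile over the 8 libraries was most like that of *Adam23*, by Pearson's r of log2(FPKM + 0.1) among all genes tested, were *Adgrb1* (r = 0.995), *Ttpal* (0.993), *Zfhx2* (0.991), *Lrrfip1* (0.990) and *Epha2* (0.988). For *Dapk1* they were *Srgap2* (0.993), *Adgrb1* (0.989), *Tmem79* (0.984), *Ece1* (0.983) and *Ptrh2* (0.982). The libraries share their 4 groups, so each r is a description. *Adgrb1*, an adhesion receptor gene for which a role downstream of P53 is known, was in both lists, with 0.875 and 0.982 FPKM in WT 2i against 0.0966 and 0.115 in P53-/- 2i, then 1.74 and 1.47 in WT serum against 1.30 and 1.33 without P53. *Epha2*, an ephrin receptor gene, was more abundant, with 28.8 and 24.5 FPKM in WT 2i against 10.5 and 11.0 in P53-/- 2i, then 46.6 and 44.2 in WT serum against 37.4 and 32.5 without P53.

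A similar shape did not come with a similar size. The 9 genes kept between 7.47% (*Ece1*) and 64.3% (*Ptrh2*) of their WT level in P53-/- 2i and between 68.2% (*Ece1*) and 96.5% (*Ptrh2*) in P53-/- serum. Each of them therefore kept a larger share than *Adam23* (1.49% and 62.6%) or *Dapk1* (3.53% and 63.7%) in either culture. *Ece1*, which encodes endothelin-converting enzyme 1, came closest, with 3.75 and 3.65 FPKM in WT 2i against 0.440 and 0.112 in P53-/- 2i.

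**Figure D4:**
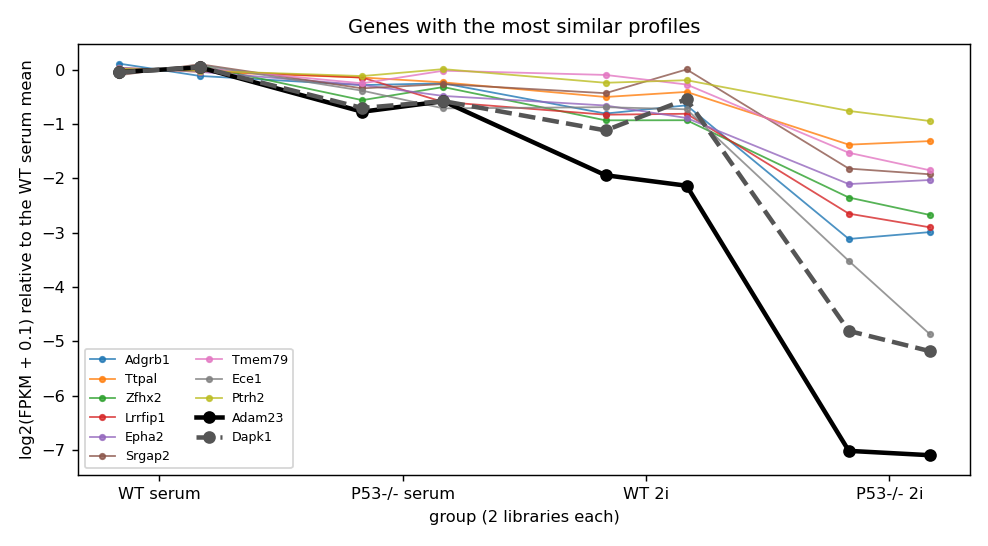
Log2(FPKM + 0.1) relative to the mean of the WT serum libraries (y axis) in the 8 libraries, ordered by group (x axis), for *Adam23* (solid black), *Dapk1* (dashed) and the 9 genes with the most similar profiles. All lines have their lowest points in P53-/- 2i, and *Adam23* and *Ece1* mark the deepest of the solid lines.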

How the data were processed

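The authors deposited 1 table of FPKM values for G1-phase WT and P53-/- ESCs in 2i and serum. RNA was depleted of ribosomal RNA, reverse-transcribed with random primers and made into stranded libraries. The submitters' processing notes name STAR, Cufflinks, DESeq2 and mm9, without their roles or versions. Columns give genotype and culture but no replicate number. The other 4 of the 12 samples, P21-/- and further WT 2i cells, were not analysed here.

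Genes averaging 0.5 FPKM or more (12572 of 24881) entered limma 3.58.1 (R 4.3.3) as log2(FPKM + 0.1), with the 4 groups in 1 fit, eBayes with trend and Benjamini-Hochberg adjustment over all of them. Calls needed a fold change above 1.5 and an adjusted p below 0.1. P53-/- was compared with WT in each culture, the effects were compared between cultures, and WT 2i was compared with WT serum. FPKM are not counts, so the count model of the study was not used. *Adam23*, *Dapk1* and 6 lists of related genes, as well as 5 marker lists, were chosen with earlier results of these data known. Named are the leading list members called in a P53 contrast (at most 8 qualify per list, not all printed, and some items are not reported here), those with the role of *Adam23* or *Dapk1*, the 5 most similar genes of each and 3 neighbours on each side. Genes named by the share kept were found with limits set after values were seen, and single marker genes, *Zfp365* and the ADAM genes named by an unadjusted p were also chosen after their values were seen. With 2 libraries per group, an exact permutation test of 1 gene cannot go below p = 0.333. FPKM give no counts, so depth was estimated from value steps of single-transcript genes and no counting interval is given. The test was checked on simulated data, where 164 of 200 genes given a log2 change of 2 in P53-/- 2i were called among 12254 genes, with 18 unchanged genes called. Alternatives were other pseudocounts, filters, scalings, fits of fewer groups, eBayes without trend, and each library left out.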

Additional observations from a re-analysis of the deposited data

How the results depend on the processing

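The values of *Adam23* and *Dapk1* and the named called changes kept their direction in each of the 8 other settings and the 8 fits without 1 library in which they had a value. *Camk2a*, *Ptprv*, *Adam1a*, *Adam4* and *Adam11* had none with a mean of at least 1 FPKM. Among the named genes that were not called, the 2i values of *Lgi2* (−0.18 to 0.98), *Dapk3* (−0.07 to 0.28), *Tut7* (−0.16 to 0.38), *Isca1* (−0.48 to 0.42) and *Camk2d* (−0.51 to 0.01) and the serum values of *Zdbf2* (−0.25 to 0.20) and *Camk2b* (−0.56 to 0.16) changed sign in fits that left out 1 library, that of *Isca1* also with quantile normalization. The difference of *Zfp365* between the cultures did so with a pseudocount of 1 (0.37). The log2 values of low genes followed the pseudocount: with a pseudocount of 1, *Adam23* had −2.70 in 2i and −2.05 for the difference between the cultures, and *Dapk1* −2.29 and −1.73, and with 0.01 *Adam23* had −5.92 and −5.24 and *Dapk1* −4.74 and −4.09. Quantile normalization moved *Adam23* to −5.32 and −4.62. Without 1 library, *Adam23* in 2i ran from −5.12 to −4.92 and its difference from −4.44 to −4.25, and *Dapk1* in 2i from −4.46 to −3.88 and its difference from −3.82 to −3.24.

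Listed genes called in 2i numbered 38, and 20 in a fit of the groups compared alone, and those in serum 19 and 10. Leaving out 1 library gave 24 to 36 in 2i, lowest without library 2 of P53-/- 2i, 12 to 21 in serum, lowest without either WT serum library, 0 to 2 for the difference and 50 to 63 for WT 2i against WT serum. Over all genes, 1299 were called in 2i (193 to 1378 over the settings, 491 to 1224 without 1 library), 128 in serum (37 to 137 and 52 to 148) and 26 for the difference (26 to 66 and 19 to 69), the low numbers for 2i and serum in the fit of fewer libraries. In serum, *Perp* (−3.44, limma adjusted p = 0.0557) was lost in 9 settings, among them without either P53-/- 2i, P53-/- serum or WT serum library, with an adjusted p of up to 0.411. The 5 most similar genes stayed within the first 15 places with log2(FPKM + 1), and by Spearman's rho 0 of 5 were shared for either gene. No paired analysis was possible because the columns carry no replicate numbers. Depth limits the P53-/- 2i levels of *Adam23* and *Dapk1*, which rest on 3 to 10 estimated fragments.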
